A study of Homo sapiens with 4 samples.

Results

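Enzymes that add or remove methyl and acetyl groups on histones were measured by RNA sequencing in MDA-MB-231 cells, a widely used human line of triple-negative breast cancer. The members were chosen by gene symbol: every row of the table whose symbol starts with KDM, KMT, SETD, PRMT, HDAC or KAT and a digit, or is SIRT1 to SIRT7, with 1 matching gene left out by the rule. This gave 70 of 20804 genes, of which 66 are enzyme genes and 4 are antisense RNAs named after an enzyme gene. They comprise 7 arginine methyltransferases, 17 lysine methyltransferases and relatives, 16 lysine demethylases, 8 acetyltransferases, 11 histone deacetylases (HDACs) and 7 sirtuins. The rule selects by name and uses no measured value, but it was drawn up with earlier results of these data known.

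The series holds 4 libraries, 2 of wild-type cells (WT 1 and WT 2) and 2 of cells whose genotype label is miR-3662-KO (KO 1 and KO 2), all of the same cell line. The labels give no other treatment. The title of the series names CRISPR interference and activation, and its design text names sorting by activity of the microRNA, so how the KO cells were made, and whether they are 1 clone, cannot be told from the sources used here. Nothing says that the libraries came from separate cultures, so p-values measure only the spread between these libraries, which may be technical.

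Each value is in FPKM, sequenced fragments scaled by transcript length and library size, as the authors deposited it. The FPKM values summed to between 504102 and 544650 per library. Depth is unknown, because the table holds no counts. Of 10 markers of mesenchymal-like breast lines, 9 reached at least 1 FPKM in all 4 libraries, and SPARC was below. CAV1 and ITGB1 among them were called higher in KO by the test described below (log2 fold changes 1.35 and 0.43), and the others were not called. Of 11 measured markers of other cell types 8 were under 1 FPKM in all 4 libraries, 3 of them at 0 in all (PTPRC, CD3E and TYR). The exceptions were DES (at most 1.27 FPKM), COL1A1, which fell from 1.11 and 1.45 to 0.36 and 0.27, and CD68, which rose from 30.15 and 39.03 to 67.72 and 117.02. The summed level of these markers, nearly all of it CD68, was 31.6 and 41.0 FPKM in WT and 69.1 and 119 in KO. The part of this sum in the results was not tested. ESR1, the gene of the oestrogen receptor, was at 0.01 FPKM or less, ERBB2 was at 8.55 to 11.4 FPKM, and PGR was not analysed here. Fewer cells of a type and less RNA per cell cannot be told apart in such bulk samples.

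Histone tails carry methyl groups on lysine and arginine and acetyl groups on lysine. Methyltransferases take the methyl group from S-adenosylmethionine, and demethylases remove it with flavin or with iron and 2-oxoglutarate as helpers. Acetyltransferases use acetyl-CoA and are mostly linked with active genes, whereas HDACs and the NAD-dependent sirtuins take the acetyl group off. Many of these enzymes also modify proteins other than histones, and several are drug targets in cancer.

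The microRNA named in the KO label is shown first, since sites for it are one property of the members that the choice did not use. Its mature sequence in RefSeq (GRCh38.p14) lies at chr6:134979355-134979378 on the minus strand, and the seed, bases 2 to 8, is in capitals. The table has no value for it and so gives no check of the knockout.
hsa-miR-3662: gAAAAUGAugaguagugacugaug

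A 7-base match to the seed, TCATTTT, was sought on the transcript strand in 1 annotated 3′ UTR per gene, the longest in GENCODE 29. Of the 64 tested members with an annotated 3′ UTR, 20 (31.25%) held a match, against 33.4% of 10879 tested genes. Of the 16 members that passed the test described below, 5 held a match: SETD1B, KAT7, KAT2A and HDAC4, which fell in KO, and KAT6B, which rose. Their sites are shown with the match in capitals, because they show the sequence context in members that changed in either direction (GRCh38).
SETD1B, the site nearest the stop codon, chr12:121830449-121830477, plus strand: ccacgtctctcTCATTTTaacaaacgccc
SETD1B, the next site, chr12:121832344-121832372, plus strand: tatgtgtcgagTCATTTTtctttcaactc
SETD1B, the last site, chr12:121832364-121832392, plus strand: tttcaactcccTCATTTTtcattgaacaa
KAT7, chr17:49828023-49828051, plus strand: tttaaatttctTCATTTTgattaagagac
KAT2A, chr17:42113268-42113296, minus strand: accagaactgcTCATTTTagcttgagtga
HDAC4, chr2:239051652-239051680, minus strand: agtttgtacttTCATTTTaattattttct
KAT6B, chr10:74844552-74844580, plus strand: tcaataaaaagTCATTTTttattgtccac
The KAT6B site lies in the 3′ UTR of a short annotated transcript, which has the longest annotated 3′ UTR of that gene but ends far upstream of the end of the full-length transcripts. An A follows the match in KAT2A, HDAC4 and the site of SETD1B nearest the stop codon. The median log2 fold change was -0.20 over the 20 members with a match and -0.035 over those without. Over all tested genes it was 0.089 with a match and 0.059 without. A match is a description of the sequence and does not show that the microRNA binds there.

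Values were compared as log2(FPKM + 1), a scale that understates changes at low levels. A gene entered the limma fit if 2 or more libraries had 1 FPKM or more, which left 11786 genes, and a gene was called at an adjusted p under 0.05 (Benjamini-Hochberg over all tested genes). Of the 70 members 65 passed this filter. KDM7A, SIRT4 and the antisense RNAs HDAC11-AS1, KMT2E-AS1 and PRMT5-AS1 did not, and lay at 0.03 to 1.02 FPKM where detected, with HDAC11-AS1 at 0 in KO 2. KDM4A-AS1 passed the filter through the WT libraries alone.

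Of the 65 tested members 16 changed, 4 higher and 12 lower in KO. That is 24.6% of the members, near the 27% of all tested genes that were called. By direction, 6.15% of the members were higher and 18.5% lower, against 16.2% and 10.8% of all tested genes. The KO values lay wholly above the WT values in 17 members, wholly below in 28 and overlapped them in 20. Groups did not overlap in 69.2% of the members, against 68% of all tested genes, with KO above WT in 39.3% and KO below WT in 28.7% of all tested genes. The median log2 fold change was -0.092 over the tested members and 0.074 over all tested genes. After the libraries were scaled by the median of ratios, 3 members were higher and 16 lower, and over all genes 1413 were higher and 1828 lower, against 1906 and 1278 as deposited. That scaling moved the median log2 fold change of all genes from 0.074 to -0.021. When no filter on low values was applied, 1 of the 70 members was called (1.43%), against 2.65% of 19833 genes. With any 1 library left out, fewer members and fewer of all tested genes were called. The median log2 fold change of the members was then -0.123 without WT 1, -0.103 without WT 2, -0.105 without KO 1 and -0.0113 without KO 2. Over all tested genes it was 0.0685, 0.0635, 0.0889 and 0.0551 in the same order.

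**Figure D1:**
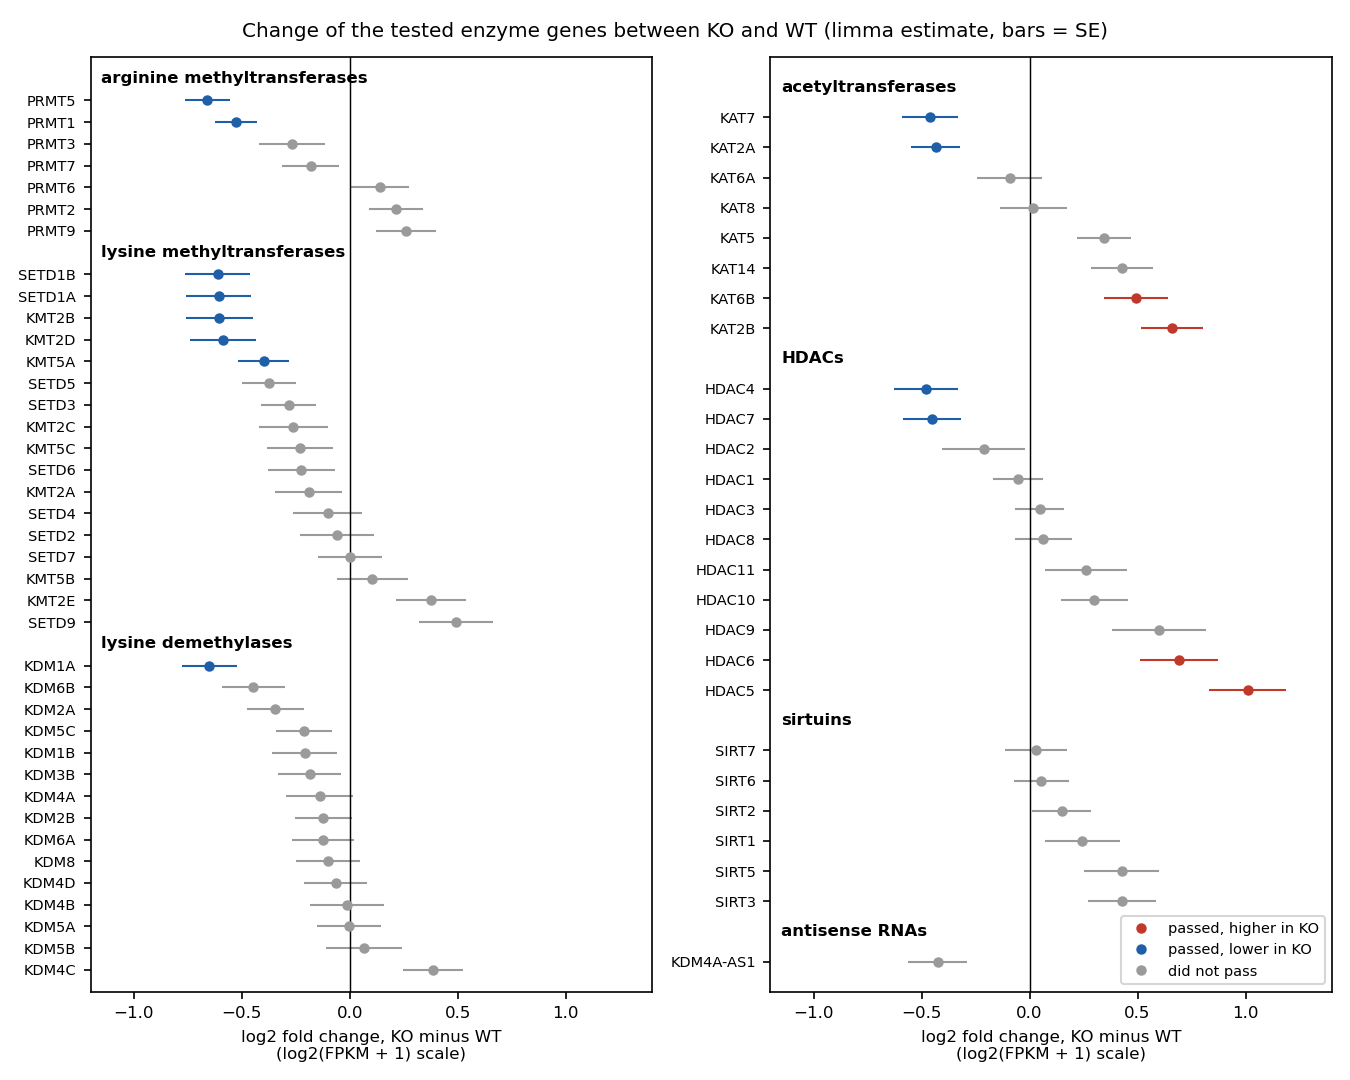
Log2 fold change (KO minus WT, on the log2(FPKM + 1) scale, x axis) of the 65 tested members, grouped by enzyme family, with the limma standard error as bars. The 12 members lower in KO (blue) lie mainly among the methyltransferases, and the 4 higher (red) are KAT2B, KAT6B, HDAC5 and HDAC6.

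Levels differed widely between members (FPKM, per length). PRMT1 had the highest mean over the 4 libraries, 317 FPKM, followed by PRMT5 at 146, HDAC1 at 92.3 and HDAC3 at 70.1, and the median over the 70 members was 7.89. All members together summed to 1467 and 1489 FPKM in WT and to 1241 and 1235 in KO, which is 0.291% and 0.286% of all FPKM in WT and 0.235% and 0.227% in KO. Without PRMT1 and PRMT5 the sum was 924 ± 22.6 in WT and 866 ± 13.4 in KO (mean ± SD, n = 2).

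The arginine methyltransferases held the 2 most abundant members, and these 2 fell in KO while the other 5 did not pass. The share lower over all tested genes was 10.8%. PRMT5, the main enzyme of symmetric arginine dimethylation (chr14:22920511-22929585, minus strand), had WT values of 179.22 and 179.49 FPKM and KO values of 109.68 and 116.96. Both KO values lay far below both WT values. It fell by 0.66 on the log2 scale (SE 0.10, adjusted p 0.00563 in limma), to 63.2% of its WT mean. PRMT1, which makes most of the asymmetric dimethylarginine of cells (chr19:49675786-49689029, plus strand), was at 379.25 and 369.31 FPKM in WT and at 256.58 and 262.1 in KO. The groups did not overlap, and it fell by 0.53 (SE 0.10, adjusted p 0.00892). The ratio of PRMT1 to PRMT5 was 2.12 and 2.06 in WT and 2.34 and 2.24 in KO.

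PRMT5 passed whichever single library was left out (adjusted p 0.0178 to 0.0415). PRMT1 did not pass without WT 1 (0.0673) or without WT 2 (0.0515). Going by gene names alone, both genes have a copy in the annotation (PRMT5P1 and PRMT1P1) that may share reads. HDAC1 (HDAC1P1 and HDAC1P2) and SETD6 (SETD6P1) have such copies too. Exons of PRMT5 and PRMT1 overlap genes on the other strand (PRMT5-AS1 and AC011495.3). The library kit named in the labels is not stated to keep strand, so reads of overlapping antisense genes cannot be told apart. PRMT5-AS1 itself was at 0.05 to 0.16 FPKM. Among the rest, PRMT3 was at 24.58 and 20.47 FPKM in WT and 16.85 and 20.27 in KO, and PRMT7, which makes monomethylarginine, at 21.72 and 23.73 in WT and 20.98 and 18.92 in KO, neither passing (log2 fold changes -0.27, SE 0.15, adjusted p 0.228 and -0.18, SE 0.13, adjusted p 0.338). PRMT2 and PRMT9 lay higher in both KO libraries without passing (0.237 and 0.190), and PRMT6, which methylates histone H3, overlapped between the groups.

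Among the lysine methyltransferases, the 6 large enzymes of the KMT2 and SETD1 type, which methylate lysine 4 of histone H3 at promoters and enhancers, all had lower values in both KO libraries. Of these 6, 4 fell, and the median log2 fold change was -0.59. Of all tested genes 10.8% fell, and 28.7% had both KO values below both WT values. SETD1A (chr16:30957294-30984664, plus strand) was at 14.06 and 15.3 FPKM in WT and at 10.22 and 8.43 in KO, and fell by 0.61 (SE 0.15, adjusted p 0.0236). Its close relative SETD1B (chr12:121804180-121832584, plus strand) was at 5.83 and 6.8 FPKM in WT and at 3.9 and 3.66 in KO, and fell by 0.61 as well (SE 0.15, adjusted p 0.0236). Both enzymes stood at about the same part of their WT mean, 63.5% for SETD1A and 59.9% for SETD1B.

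KMT2B (chr19:35718019-35738878, plus strand) was at 9.54 and 10.37 FPKM in WT and at 6.89 and 5.58 in KO, a fall of 0.60 (SE 0.16, adjusted p 0.0272). KMT2D, an enzyme of enhancers (chr12:49018975-49059774, minus strand), was at 7.95 and 8.33 FPKM in WT and at 5.61 and 4.61 in KO, a fall of 0.59 (SE 0.15, adjusted p 0.0283). In all 4 genes the lowest WT value exceeded the highest KO value, as in every member that fell, so this adds nothing to the calls. KMT2A was at 8.33 and 7.71 FPKM in WT and 7.59 and 6.27 in KO (adjusted p 0.387), and KMT2C, the partner of KMT2D in type, at 2.83 and 2.2 in WT and 2.06 and 1.79 in KO (0.251), so neither passed. The summed level of the 6 genes was 48.5 and 50.7 FPKM in WT and 36.3 and 30.3 in KO.

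Leaving out 1 library ended each of these calls in at least 3 of the 4 cases. SETD1A did not pass without WT 1 (adjusted p 0.0683), WT 2 (0.101) or KO 2 (0.125), and passed without KO 1 (0.0419). SETD1B did not pass without WT 2 (0.0989), KO 1 (0.0785) or KO 2 (0.120), and passed without WT 1 (0.0498). KMT2B did not pass without WT 1 (0.0726), WT 2 (0.106) or KO 2 (0.151), and passed without KO 1 (0.0485). KMT2D did not pass in any of the 4 (0.0552 to 0.160). In the annotation, exons of SETD1A, KMT2B and KMT2D overlap genes on the other strand (AC135048.4, IGFLR1 and DDN-AS1).

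Of the other 11 KMT and SETD proteins 1 fell (9.09%) and none rose, against 10.8% and 16.2% of all tested genes. Of those not called, SETD5 with lower values and SETD9 with higher values had the smallest limma p. KMT5A, which adds the single methyl group on lysine 20 of histone H4 in dividing cells (chr12:123383773-123409358, plus strand), was at 47.19 and 43.34 FPKM in WT and at 34.48 and 33.63 in KO. It fell by 0.40 (SE 0.12, adjusted p 0.0428), but did not pass without any single library (0.0906 to 0.206) or without the mean-variance trend (0.0591). SETD5 was at 28.45 and 27.62 FPKM in WT and at 22.15 and 20.69 in KO and did not pass (-0.37, adjusted p 0.0594), whereas it passed after scaling by the median of ratios (0.0284). SETD9 (0.49, adjusted p 0.0687) and KMT2E (0.38, adjusted p 0.124) lay higher in both KO libraries. SETD2, the enzyme that trimethylates lysine 36 of histone H3, and SETD7 overlapped between the groups, at 8.89 ± 1.83 and 8.43 ± 0.700 FPKM and at 10.1 ± 1.12 and 10.1 ± 0.544 FPKM in WT and KO.

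**Figure D2:**
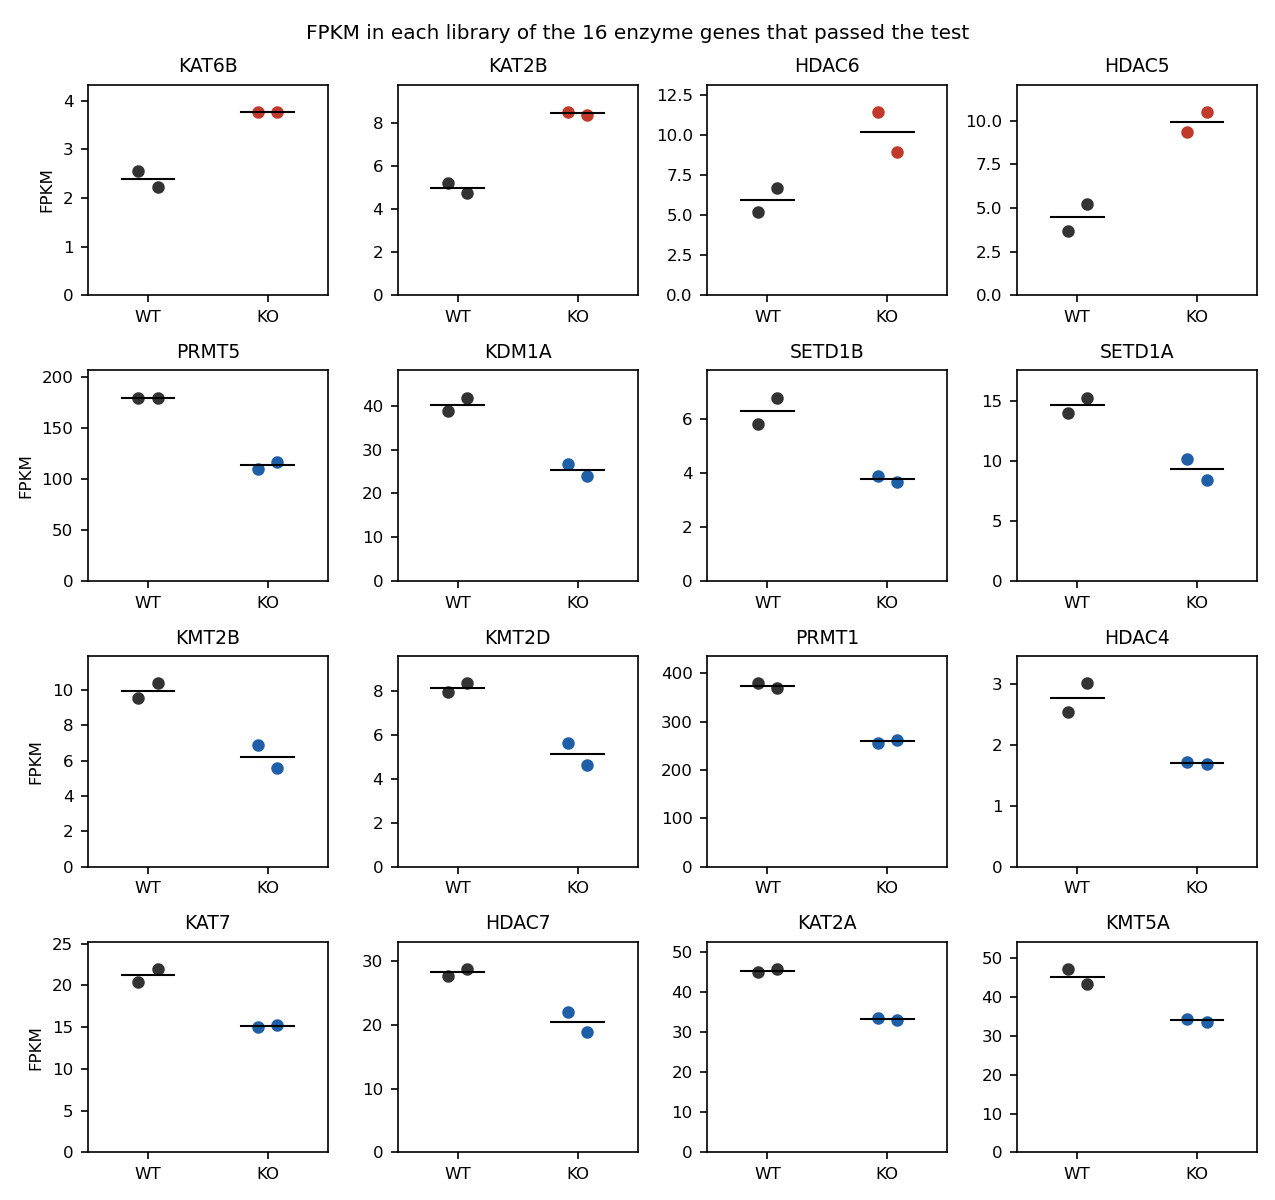
FPKM (y axis, from 0, scaled per gene) in each of the 2 WT and 2 KO libraries for the 16 members that passed the test, with the group mean as a line. In each panel both KO points lie on one side of both WT points, above in red and below in blue.

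Among the lysine demethylases 1 of 15 tested members fell (6.67%) and none rose, against 10.8% and 16.2% of all tested genes. KDM1A, also known as LSD1, a flavin-dependent enzyme that removes methyl groups from lysine 4 of histone H3 and works with the RCOR and HDAC proteins (chr1:23019443-23083689, plus strand), was at 38.73 and 41.84 FPKM in WT and at 26.76 and 23.87 in KO. It fell by 0.65 (SE 0.13, adjusted p 0.0109), to 62.8% of its WT mean, and no KO value reached the WT range. It did not pass without WT 2 (0.0637) or KO 2 (0.0509). KDM1B, the other flavin-dependent enzyme, was at 7.24 and 6.77 FPKM in WT and at 5.49 and 6.38 in KO (adjusted p 0.327).

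None of the 13 tested JmjC demethylases, the iron and 2-oxoglutarate-dependent class, was called by limma at an adjusted p under 0.05. The share called over all tested genes was 27%. The 3 with the smallest p among the 13 were KDM6B, KDM4C and KDM2A. KDM6B, which acts on lysine 27 of histone H3, was at 2.28 and 2.61 FPKM in WT and at 1.47 and 1.58 in KO (-0.45, adjusted p 0.0555). KDM2A was at 23.78 and 22.19 FPKM in WT and at 18.89 and 16.91 in KO (-0.34, adjusted p 0.0899). After scaling by the median of ratios KDM6B and KDM2A passed as lower. KDM4C, which acts on lysine 9 of histone H3, lay the other way, at 1.23 and 1.19 FPKM in WT and at 1.9 and 1.88 in KO (0.39, adjusted p 0.0738). KDM5C, the most abundant JmjC enzyme here, was at 23.65 and 25.41 FPKM in WT and at 22.21 and 19.96 in KO (-0.21, SE 0.13, adjusted p 0.259). It and KDM6A, KDM3B and KDM2B lay lower in both KO libraries without passing, and KDM4A, KDM4B, KDM4D, KDM5A, KDM5B and KDM8 overlapped. The antisense RNA KDM4A-AS1 was at 1.51 and 1.42 FPKM in WT and at 0.89 and 0.78 in KO (-0.43, adjusted p 0.0558). By limma it passed as lower after scaling (0.0384), without the mean-variance trend (0.0473) and after the GC correction (0.0248). KDM4A-AS1 entered the test through the WT libraries alone, where it was higher, so these calls are no support for a fall. It shares exon sequence with KDM4A, whose mean was 14.4 ± 1.09 FPKM in WT against 13.1 ± 1.94 in KO (SD, n = 2).

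Of the 8 acetyltransferases 2 rose and 2 fell (25% each), against 16.2% and 10.8% of all tested genes. KAT2A and KAT2B, also known as GCN5 and PCAF, are close relatives that fill the same place in the SAGA and ATAC complexes, and their values went in opposite directions. KAT2A (chr17:42113108-42121358, minus strand) was at 45.11 and 45.78 FPKM in WT and at 33.6 and 33.09 in KO, and fell by 0.44 (SE 0.11, adjusted p 0.0287). KAT2B (chr3:20040023-20154404, plus strand) was at 5.23 and 4.75 FPKM in WT and at 8.51 and 8.37 in KO, and rose by 0.66 (SE 0.14, adjusted p 0.0154). KAT2A remained the more abundant of the 2, but its ratio to KAT2B went from 8.63 and 9.64 in WT to 3.95 and 3.95 in KO.

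The MYST enzymes also held 1 call in each direction. KAT7, also known as HBO1, which acetylates histones H3 and H4 (chr17:49788555-49835030, plus strand), was at 20.45 and 21.93 FPKM in WT and at 14.97 and 15.25 in KO, a fall of 0.46 (SE 0.13, adjusted p 0.0344). KAT6B (chr10:74824927-75032624, plus strand) was at 2.56 and 2.22 FPKM in WT and at 3.77 and 3.76 in KO, a rise of 0.49 (SE 0.15, adjusted p 0.0427). Its relative KAT6A was at 6.47 and 5.92 FPKM in WT and 6.11 and 5.4 in KO, with overlapping groups. KAT5, the enzyme of the TIP60 complex, was at 28.94 and 31.93 FPKM in WT and 40.62 and 37.25 in KO without passing (0.35, SE 0.13, adjusted p 0.0770), as was KAT14 (0.43, adjusted p 0.0633), and KAT8 overlapped.

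KAT2A, KAT7 and KAT6B did not pass without any single library (adjusted p 0.0696 to 0.128, 0.0961 to 0.151 and 0.0800 to 0.157). KAT2B passed only without WT 1 (0.0476), and not without WT 2 (0.0659), KO 1 (0.0714) or KO 2 (0.0779). After scaling by the median of ratios KAT6B did not pass (0.0755). Exons of KAT7 overlap FAM117A on the other strand, and those of KAT6B overlap 2 non-coding genes.

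**Figure D3:**
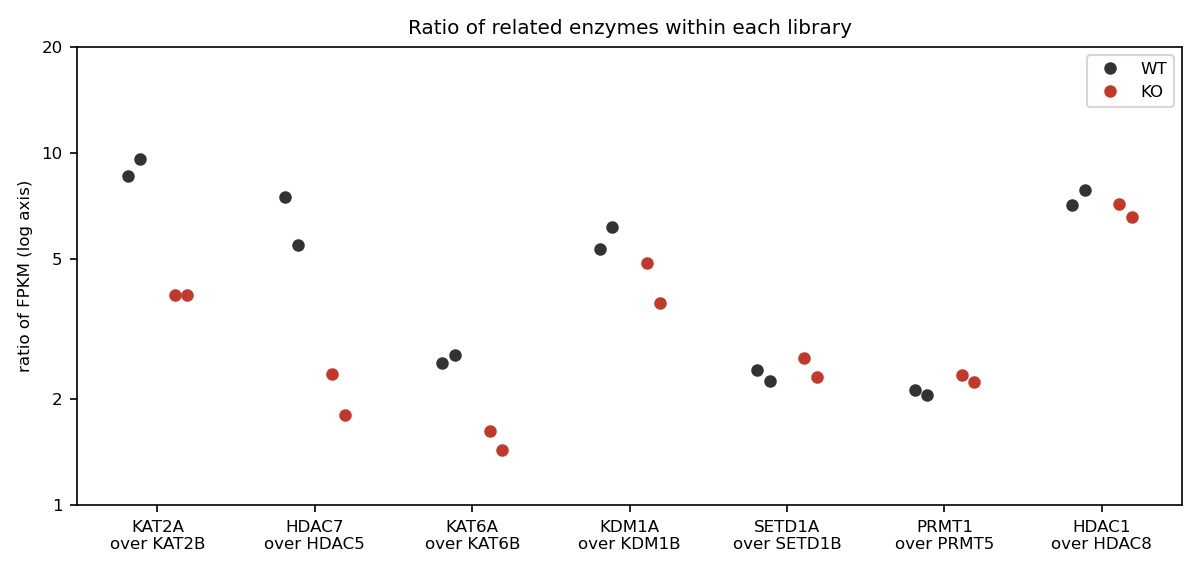
Ratio of the FPKM values of 2 related enzymes within each library (log axis), with WT in black and KO in red. The ratios of KAT2A to KAT2B, HDAC7 to HDAC5, KAT6A to KAT6B and KDM1A to KDM1B were lower in both KO libraries. That of PRMT1 to PRMT5 was higher in both, and those of SETD1A to SETD1B and HDAC1 to HDAC8 overlapped between the groups. KAT2A and KAT2B, and HDAC7 and HDAC5, were called in opposite directions, so the shift of these ratios follows from the calls.

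Of 11 HDACs 2 were higher and 2 lower (18.2% each), against 16.2% and 10.8% of all tested genes. Of these 4 calls 3 were in class IIa, the signal-responsive HDACs that shuttle between nucleus and cytoplasm. HDAC5 (chr17:44076746-44123702, minus strand) was at 3.71 and 5.24 FPKM in WT and at 9.36 and 10.51 in KO. It rose by 1.01 (SE 0.18, adjusted p 0.00784), 2.22-fold by the means, which was the largest change in size among the tested members. HDAC7 (chr12:47782722-47833132, minus strand) was at 27.74 and 28.76 FPKM in WT and at 22.01 and 18.89 in KO, and fell by 0.45 (SE 0.13, adjusted p 0.0418). HDAC4 (chr2:239048168-239401654, minus strand) was at 2.54 and 3.01 FPKM in WT and at 1.72 and 1.69 in KO, and fell by 0.48 (SE 0.15, adjusted p 0.0480). HDAC9 was at 2.95 and 2.06 FPKM in WT and at 3.39 and 5.32 in KO and did not pass (adjusted p 0.0765).

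The summed level of the 4 class IIa genes was 36.9 and 39.1 FPKM in WT and 36.5 and 36.4 in KO. The ratio of HDAC7 to HDAC5 went from 7.48 and 5.49 in WT to 2.35 and 1.80 in KO. HDAC5 did not pass without KO 2 (0.0541). HDAC7 did not pass without any single library (0.0532 to 0.174), nor did HDAC4 (0.0742 to 0.177), and HDAC4 was also lost at pseudocounts of 0.1 (0.0547) and 0.5 (0.0506). Exons of HDAC7 overlap 3 genes on the other strand, SLC48A1 among them, and those of HDAC4 overlap AC062017.1.

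HDAC6, a class IIb enzyme that mainly deacetylates tubulin and other cytoplasmic proteins (chrX:48801377-48824982, plus strand), was at 5.2 and 6.67 FPKM in WT and at 11.45 and 8.95 in KO. It rose by 0.69 (SE 0.18, adjusted p 0.0274), with both KO values above the WT values, but did not pass without WT 1 (0.127), KO 1 (0.139) or KO 2 (0.0532). HDAC10, of the same class, was at 5.78 and 7.02 FPKM in WT and 8.45 and 7.71 in KO (adjusted p 0.185), and HDAC11, the only member of class IV, was at 7.2 and 10.47 in WT and 11.36 and 9.9 in KO (0.26, SE 0.19, adjusted p 0.336). None of the 4 class I enzymes, mainly nuclear deacetylases, was called by limma, against 27% of all tested genes. The lowest unadjusted limma p among the 4 was 0.302, for HDAC2. HDAC1, HDAC2 and HDAC3 are catalytic subunits of nuclear co-repressor complexes. HDAC1 was at 89.44 and 98.8 FPKM in WT and at 93.83 and 87.33 in KO (-0.05, SE 0.11, adjusted p 0.749), HDAC3 at 67.23 and 70.7 in WT and 73.9 and 68.65 in KO, and HDAC2 at 27.94 and 23.2 in WT and 18.07 and 26.36 in KO. HDAC2 passed as lower after the GC correction described below (-0.41, adjusted p 0.0488), while its log2 fold change was 0.05 without KO 1. HDAC8 was at 12.58 and 12.6 FPKM in WT and 13.1 and 13.31 in KO, above WT in both but not called (0.06, adjusted p 0.742), and its log2 fold change was -0.04 after scaling by the median of ratios.

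The sirtuins gave no call among 6 tested members by limma, against 27% of all tested genes called. The 2 with the smallest p were SIRT3 and SIRT5. SIRT3, the main deacetylase of mitochondria, was at 4.22 and 5.25 FPKM in WT and 6.76 and 6.61 in KO (0.43, adjusted p 0.0790). SIRT5, a mitochondrial desuccinylase, was at 2.1 and 2.9 in WT and 3.34 and 4.03 in KO (0.43, adjusted p 0.105). SIRT3 passed as higher after the GC correction (0.0280). SIRT2, a mainly cytoplasmic enzyme, lay slightly higher in both KO libraries (0.441), and SIRT1, SIRT6 and SIRT7, the nuclear sirtuins, overlapped between the groups. Of the nuclear sirtuins SIRT6 had the highest level, at 19.09 and 21.01 FPKM in WT and 20.63 and 21.04 in KO (0.05, SE 0.13, adjusted p 0.778).

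The proteins that work with these enzymes were counted from lists that hold no member. Over all tested genes 27% were called, 16.2% higher and 10.8% lower. The called share was 26.7%, 23.5% and 37.5% in the 3 lists that come first. Of 15 tested partners of the KMT2 and SETD1 enzymes 4 fell and none rose, with a median log2 fold change of -0.0086. WDR5, the shared scaffold subunit, went from 57.45 and 57.13 FPKM in WT to 30.9 and 26.17 in KO, a fall of 0.99 (adjusted p 0.00317), and HCFC1 fell by 0.79 (adjusted p 0.00614). Of 17 further lysine and arginine methyltransferases without such a symbol 3 fell and 1 rose (median -0.17). DOT1L, which methylates lysine 79 of histone H3, fell by 0.77 and CARM1, also known as PRMT4, by 0.55, and SMYD2 rose by 0.56. Of 8 further JmjC proteins 3 fell and none rose (median -0.18), with JMJD6 falling by 1.05 and PHF2 by 0.69.

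Of 13 further acetyltransferases 3 fell and none rose (median -0.085), among them CREBBP, the relative of EP300, by 0.67 and GTF3C4 by 0.70. Of 38 partners of the KAT enzymes 4 fell and 1 rose (median -0.097), with EP400 falling by 0.67, BRPF1 falling by 0.59 and EPC2 rising by 0.69. Of 39 co-repressor partners of the HDACs 6 fell and 1 rose (median -0.065). Among them GATAD2A of the NuRD complex fell by 0.86 and TRERF1 rose by 0.49. Of 18 genes that supply the cofactors 6 rose and 1 fell (median 0.15). AHCY, which clears the product left by methyl transfer from S-adenosylmethionine, fell by 0.79, from 163.82 and 174.14 FPKM to 98.19 and 96.28, whereas ACSS2, which makes acetyl-CoA from acetate, rose by 0.89 and IDH1 by 0.76. Over the 7 lists together 9 of 148 tested genes rose and 24 fell, and after scaling by the median of ratios 5 rose and 33 fell. As deposited that is 22.3% called, 6.08% higher and 16.2% lower, against 27%, 16.2% and 10.8% of all tested genes.

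Of the partner genes named, WDR5, HCFC1, DOT1L, JMJD6, GATAD2A, AHCY and ACSS2 passed whichever single library was left out. The others did not pass in at least 1 case. The lost calls without WT 1 were PHF2 (0.0515), EP400 (0.0527), IDH1 (0.0599), CARM1 (0.0750), SMYD2 (0.0757), CREBBP (0.0786), GTF3C4 (0.0806), BRPF1 (0.0844) and TRERF1 (0.201). Without WT 2 they were BRPF1 (0.0594), TRERF1 (0.0629), EP400 (0.0673), IDH1 (0.0825), SMYD2 (0.0859), PHF2 (0.0891), CARM1 (0.101) and EPC2 (0.150). Without KO 1 they were EPC2 (0.0664) and TRERF1 (0.152). Without KO 2 they were BRPF1 (0.0812), GTF3C4 (0.0852), EP400 (0.0856), CARM1 (0.0862), SMYD2 (0.0895), IDH1 (0.0930), PHF2 (0.108), CREBBP (0.109), TRERF1 (0.177) and EPC2 (0.186). After scaling, TRERF1 (0.0915) and EPC2 (0.0506) did not pass.

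Transcripts that fell had a higher GC content, whereas over all genes those that rose lay near the median of all tested genes. The longest transcript of the 12 members that fell had a median GC content of 57.2%, against 50.7% for the 4 that rose and 47.5% for the 49 that did not pass. Over all genes the median was 53.7% for those lower in KO, 48.5% for those higher and 48.2% for all tested. The tested genes were divided by GC content into 5 bins of nearly equal size. From the lowest to the highest GC content, the median log2 fold change was 0.22, 0.090, 0.0083, 0.0053 and -0.0032. Of the 12 falling members 5 lay in each of the 2 bins of highest GC content and none in the 2 of lowest. SETD1A, SETD1B, KMT2B and KMT2D, which fell, were at 62.3%, 61.3%, 63.5% and 59.1% GC. Their relatives KMT2A and KMT2C, which did not pass, were at 46.9% and 45.0%. Over all tested genes 16.7% and 15.7% were lower in the 2 bins of highest GC content, and 3.55% and 5.92% in the 2 of lowest. The share that was higher stayed between 14.3% and 17.2% across the 5 bins. The median log2 fold change of the members was -0.012 in the bin of highest GC content and -0.20 in the next. With a correction for GC content, chosen once the data had been seen, 8 members were higher and 17 lower. That is 38.5% of the tested members. With the same correction 34.1% of 11402 genes were called, 2063 higher and 1825 lower. All 16 members called without the correction were still called. The 9 gained were HDAC2, KDM4A-AS1, KDM6B, PRMT3 and SETD5, which were lower, and KAT14, KAT5, SETD9 and SIRT3, which were higher. KDM4A-AS1 had entered the test through the WT libraries alone. The part of GC content in these results was not otherwise tested.

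**Figure D4:**
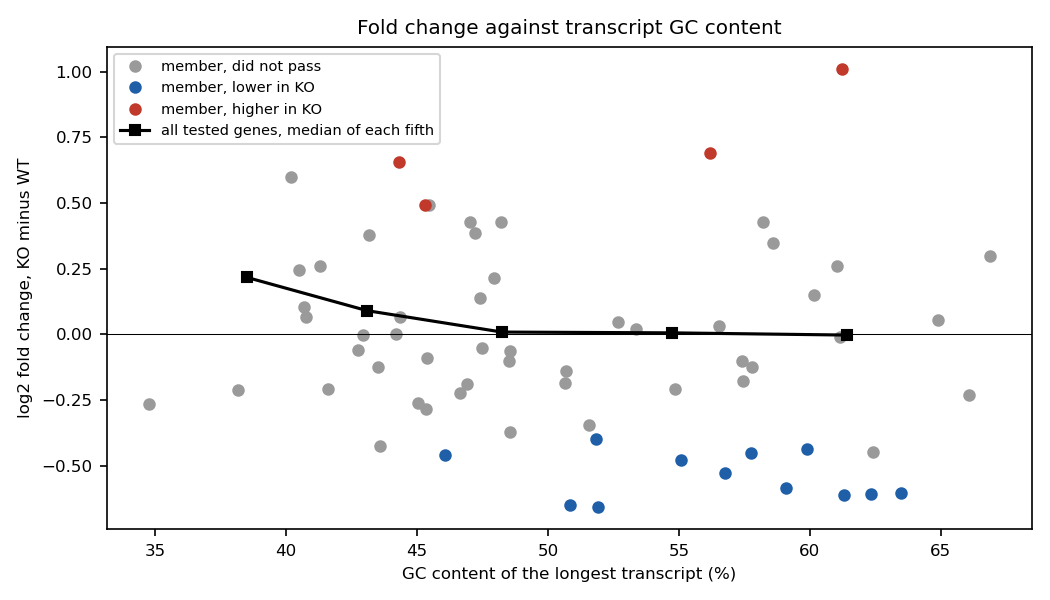
Log2 fold change (KO minus WT, y axis) against the GC content of the longest GENCODE transcript (x axis, percent) for the 65 tested members, with the median of all tested genes in each of 5 GC bins as black squares. The members lower in KO (blue) lie at 46% GC or more, and the 4 higher in KO (red) spread from 44.3% to 61.2%.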

How the data were processed

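RNA of 2 WT and 2 KO libraries of MDA-MB-231 cells was taken up in Trizol and prepared with a TruSeq RNA kit, per the labels' protocols. The authors deposited 1 FPKM value per gene and library, with 2 decimals, per the file headers. The submitters' processing notes name the build hg38 and the tools HISAT, StringTie, Cufflinks and GATK, without saying what each did or its version. The sources used here give neither the annotation nor the way reads shared by gene copies were split. All value columns matched 1 sample each.

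FPKM was tested without further scaling as log2(FPKM + 1) with limma 3.58.1 (R 4.3.3, moderated test with a mean-variance trend, Benjamini-Hochberg over all tested genes, 2 residual degrees of freedom), with a floor of 1 FPKM in 2 or more libraries. On simulated data the fit was tested beforehand. Other steps used Python 3.11.15 and pandas 2.3.3. Positions, transcripts and 3′ UTRs came from GENCODE 29 (GRCh38) and the microRNA from RefSeq. All 70 members were placed, and 96.7% of tested genes had a transcript for the GC content.

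Every member could be named, with full values for those that passed and for the most abundant of each class, and from each partner list the 2 higher and 2 lower called genes with the smallest p. For 1 list, 1 gene that this rule names is not reported here. Adjusted p-values of other members are also given and were chosen after their values were seen. The members and lists were chosen with earlier results of these data known, so no count over them is independent support. Alternatives were other pseudocounts and filters, scaling by the median of ratios, no trend, the replicate number as a block, a GC correction and each library left out.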

Additional observations from a re-analysis of the deposited data

How the results depend on the processing

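The number of tested genes called went from 3184 to 525 without a filter on low values and to between 1402 and 1902 when 1 library was left out. The number of members called went from 16 to 1 without the filter and to between 2 and 6 with 1 library left out, where fewer samples were fitted. It was 25 after the GC correction, with 3888 of 11402 genes called, and that correction was chosen after seeing the data. The cause of the other changes was not tested. With the replicate number as a block, 10 members and 2864 genes were called, and all 10 were among the 16 (HDAC4, HDAC7, KAT2A, KAT6B, KAT7 and KMT5A were lost). Nothing in the labels says that the numbers pair the libraries, and the deviations of same-numbered libraries from their group means were weakly and negatively correlated (-0.18 across 11786 genes). With the pairing crossed, added after seeing the data, 23 members and 4170 genes were called. None of the 16 members called changed direction under any of these settings, but most settings could not have reversed it. In all 16 both KO values lay on one side of both WT values, so no pseudocount or left-out library could change the sign. The filters, the blocks and the fit without the trend left the log2 fold change as it was. PRMT5 was called in all 13 settings, HDAC5 in 11, and KDM1A and PRMT1 in 10 each. Members not among the 16 changed sign in 30 cases, HDAC2 among them, which was called as lower after the GC correction. After scaling these were HDAC3 (-0.0610), HDAC8 (-0.0372), KAT8 (-0.0816), KDM5B (-0.0126), SIRT6 (-0.0495) and SIRT7 (-0.0716). After the GC correction they were HDAC8 (-0.0704), KDM4B (0.0132) and KMT5B (-0.0319). With 1 library left out, the log2 fold changes ranged as follows: HDAC1 (-0.125 to 0.0172), HDAC2 (-0.473 to 0.048), HDAC3 (-0.00607 to 0.0988), KAT8 (-0.125 to 0.161), KDM4A (-0.28 to 0.0018), KDM4B (-0.153 to 0.129), KDM4D (-0.137 to 0.00962), KDM5A (-0.0589 to 0.0519), KDM5B (-0.0797 to 0.211), KMT5B (-0.0584 to 0.267), SETD2 (-0.248 to 0.132), SETD4 (-0.244 to 0.0388), SETD7 (-0.103 to 0.103), SIRT6 (-0.0116 to 0.12) and SIRT7 (-0.0969 to 0.159). Depth is unknown, so no limit from counting error can be given.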
